A study of Homo sapiens with 26 samples.

Results

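LGR5, ASCL2, AXIN2, MYB, SOX9, EPHB2, RNF43, ZNRF3, NKD1 and TCF7 are targets of the Wnt pathway or genes of intestinal stem cells, and their RNA levels are described here in LoVo cells. The 10 genes were taken by symbol, and all 10 have an entry in both expression tables, which list 18165 and 17734 genes. Of the 10, 9 reached at least 1 FPKM in at least 2 libraries of each table and were tested, among 12607 and 12463 genes tested in all, while ASCL2 did not pass that filter. FPKM scales fragment counts to the length of the transcript and the size of the library, so levels can be set side by side between genes.

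The series asks how PIK3CA mutations alter the response to palbociclib, which inhibits CDK4 and CDK6 and was used to make the cells senescent. It holds 26 RNA sequencing libraries of LoVo, a human colorectal cancer line known to carry truncating mutations of APC, in 13 groups of 2. The H1047R and E545K lines were made from wild-type LoVo cells by lentiviral transfer of mutant PIK3CA, the gene of a lipid kinase subunit. For the palbociclib experiment 1 clone of each line is named, H1047R (3#) and E545K (2#), and for the other experiments no clone is given. In the first table H1047R, E545K and wild-type cells were each kept in medium conditioned by senescent cells, in 0.5 µM palbociclib or in DMSO. In the second table H1047R and E545K cells received 0.5 µM palbociclib with 4 µM erlotinib, an inhibitor of the EGF receptor, or 0.5 µM palbociclib alone. Exposure to palbociclib or DMSO lasted 72 hours and that to palbociclib with erlotinib 48 hours. The protocols name a control collected at 48 hours without saying which libraries it means. They give neither the time in conditioned medium, nor the cells that conditioned it, nor a time for palbociclib alone in the second table. All cells grew with 10% fetal bovine serum. Whether the 2 libraries of a group come from separate cultures is not stated, so p-values measure the spread between these libraries, which may be technical.

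Wnt ligands bind Frizzled receptors and LRP co-receptors, which halts the complex of APC, AXIN and GSK3 that otherwise destroys beta-catenin. Beta-catenin then enters the nucleus and activates genes together with TCF and LEF factors. In the gut this pathway maintains the stem cells at the crypt base, and most colorectal cancers have it switched on by mutation. LGR5 is the R-spondin receptor that marks these stem cells, and ASCL2 is a transcription factor of the same cells. AXIN2, RNF43, ZNRF3 and NKD1 are induced by the pathway and dampen it. TCF7 is one of the nuclear partners of beta-catenin, MYB and SOX9 are transcription factors of crypt progenitors, and EPHB2 is a receptor that holds progenitors in the crypt.

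Promoter windows from 250 bases before to 50 bases after the RefSeq start site were at hand for 4 of the 10 genes, MYB, RNF43, TCF7 and EPHB2. The window of MYB is shown because its level spanned the widest range of the 10 genes in the second table. A window of RNF43 is shown because, of these 4 genes, its level correlated least with those of the other tested genes in the first table. Both are given 5′ to 3′ on the strand of the gene in GRCh38.p14, for MYB chr6:135181058-135181357 on the plus strand and for RNF43 chr17:58417485-58417784 on the minus strand. Capitals mark CTTTG or its reverse complement CAAAG, the core of the TCF and LEF motif.
MYB: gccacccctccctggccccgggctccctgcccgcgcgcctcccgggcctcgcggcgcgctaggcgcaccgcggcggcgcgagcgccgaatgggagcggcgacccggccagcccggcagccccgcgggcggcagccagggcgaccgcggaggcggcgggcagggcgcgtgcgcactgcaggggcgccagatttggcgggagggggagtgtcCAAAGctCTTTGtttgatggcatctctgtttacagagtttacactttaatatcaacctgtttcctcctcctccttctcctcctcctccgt
RNF43: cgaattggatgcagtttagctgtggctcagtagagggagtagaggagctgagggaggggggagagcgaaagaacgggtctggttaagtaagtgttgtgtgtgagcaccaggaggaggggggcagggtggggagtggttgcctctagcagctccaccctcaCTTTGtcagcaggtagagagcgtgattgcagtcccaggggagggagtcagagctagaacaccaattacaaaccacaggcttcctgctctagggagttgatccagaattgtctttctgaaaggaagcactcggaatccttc
The MYB window has 2 matches to the core and the RNF43 window shown has 1. Of 35116 promoter windows in the RefSeq table, 47.5% hold the core on either strand. The longer CTTTGA, searched on both strands, contains the core and is in 12.9% of them and in neither window shown. Of the remaining entries, a further RNF43 window (chr17:58402672-58402971, minus strand) has 1 core match. For TCF7, 1 window has 2 core matches and another has 0, and the EPHB2 windows have 0.

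The FPKM of all genes added up to between 441643 and 524290 in a library. With no counts in the files the depth is unknown, and no interval for counting error can be given. The 9 markers of colorectal epithelium summed to between 7034 and 16688 FPKM per library. Of 11 listed markers of fibroblasts, endothelium, leukocytes and muscle, the first table holds 9 and the second 10, which summed to between 45.2 and 75.5 FPKM, with PDGFRB, PECAM1 and VWF below 1 FPKM in every group. Replicates correlated across genes at 0.987 to 0.997, with H1047R in palbociclib lowest in each table. Adjusted p-values are from limma with Benjamini-Hochberg adjustment over all tested genes, and a gene was called below 0.05. The median log2 change of all genes was 0.26 for H1047R and 0.25 for E545K against wild type in DMSO. In wild-type cells it was 0.29 for conditioned medium and 0.14 for palbociclib. Changes are therefore given as relative log2 changes, that is, minus the median of all genes in the comparison, on the log2(FPKM + 1) scale, with SE as the standard error. The test asks whether the change differs from 0, so a gene can be called higher with a relative change near or below 0.

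LGR5 had the widest range of the 9 tested genes in the first table. Its mean was 58.7 ± 0.2 FPKM in E545K cells in palbociclib and 4.55 ± 0.08 FPKM in wild-type cells in DMSO (SD, n = 2 each), a ratio of 12.9. From the top, LGR5 in E545K palbociclib was followed by H1047R conditioned medium, E545K conditioned medium, H1047R DMSO, H1047R palbociclib, wild-type conditioned medium, E545K DMSO, wild-type palbociclib and wild-type DMSO. The libraries of neighbouring groups overlapped between the second and the third of these groups, between the fourth and the fifth, and between the fifth and the sixth. The lower 3 groups were separate from each other and from all groups above them.

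AXIN2 was present in every library at 20.3 FPKM or more and had a narrower range, with a ratio of 3.02 between its highest and lowest group. It was highest in wild-type cells in conditioned medium (61.8 ± 0.2 FPKM) and lowest in wild-type cells in DMSO (20.5 ± 0.2). ZNRF3, NKD1 and EPHB2 had the same highest and lowest groups as AXIN2, with ratios of 3.22, 2.20 and 1.38. SOX9 was also highest in wild-type conditioned medium but lowest in E545K conditioned medium (ratio 2.13). MYB was highest in H1047R conditioned medium and lowest in E545K DMSO (ratio 3.68), TCF7 was highest in H1047R DMSO and lowest in wild-type DMSO (2.34), and RNF43 was highest in wild-type palbociclib and lowest in E545K DMSO (2.00). NKD1 was the least abundant of the tested genes, with 0.74 to 1.68 FPKM over the libraries of the first table.

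**Figure D1:**
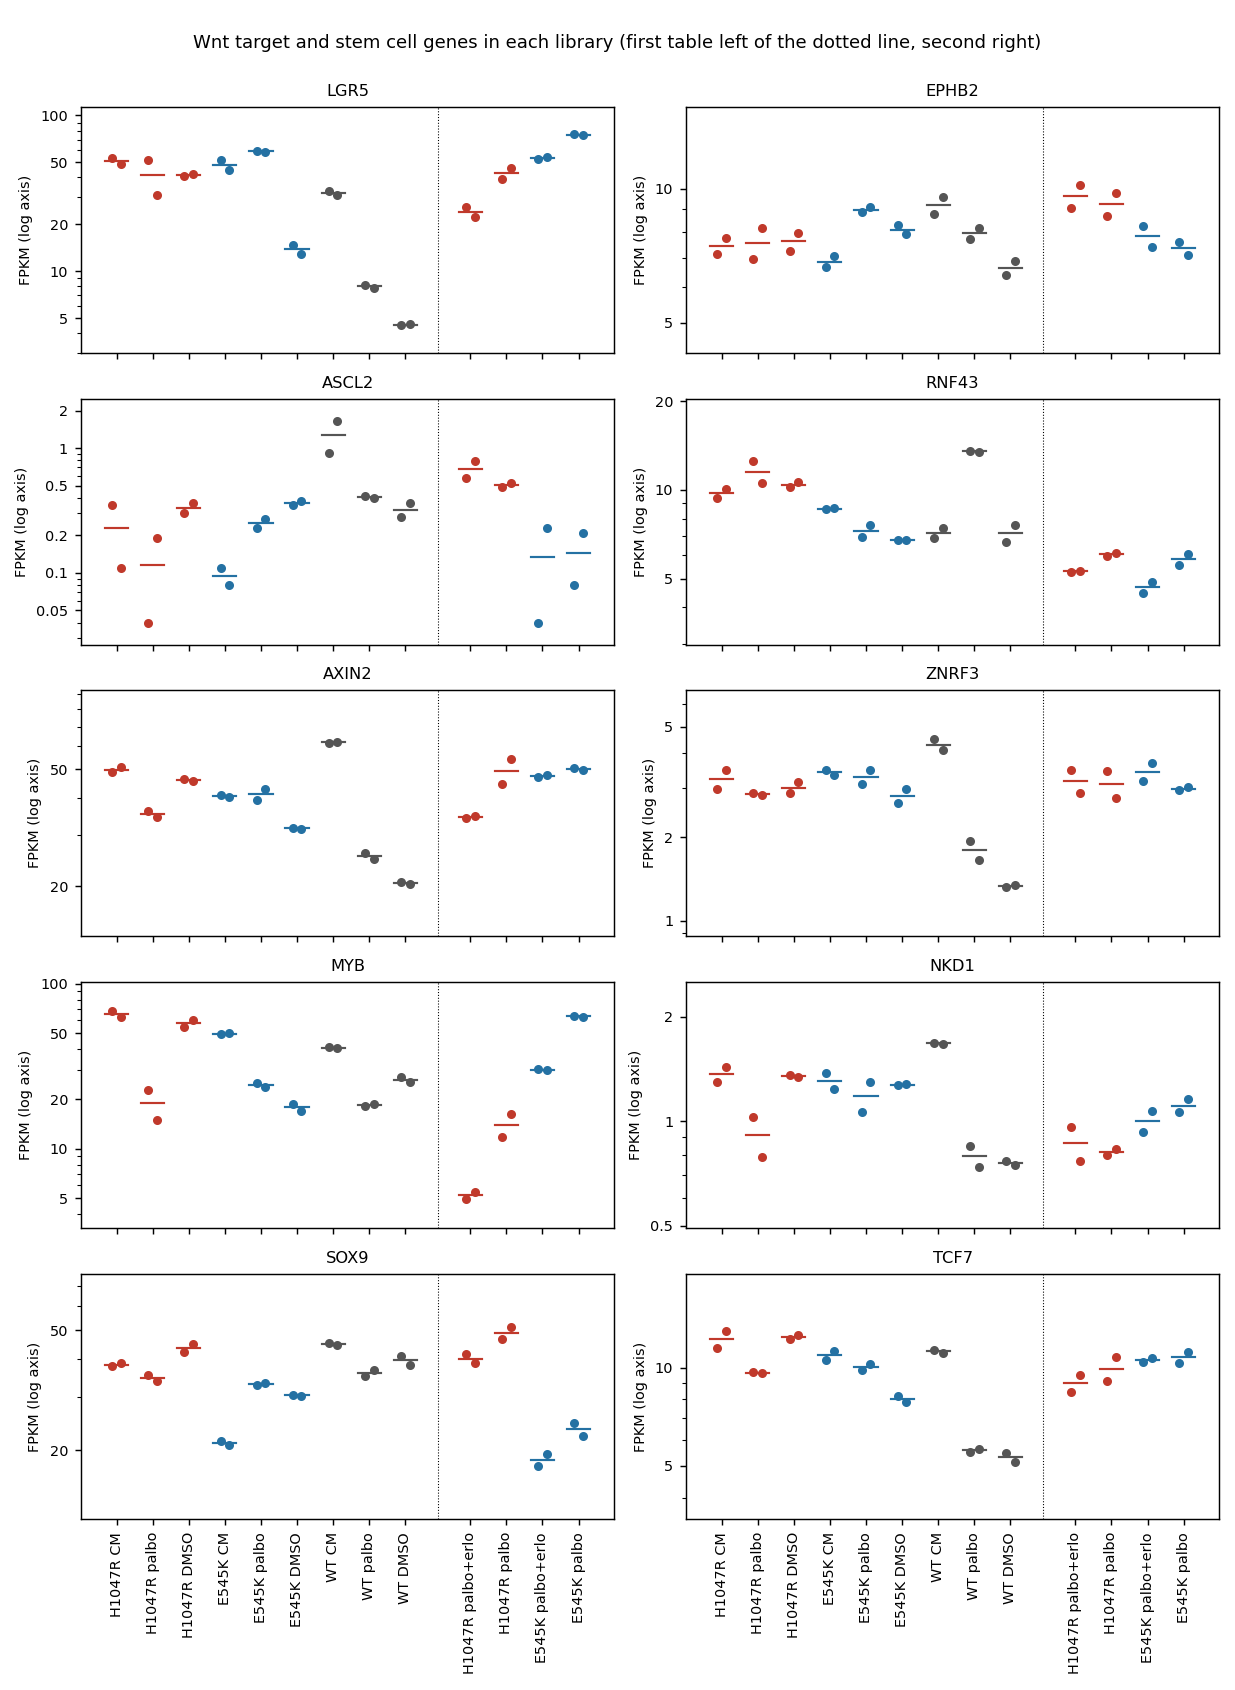
FPKM of the 10 genes on log axes in each of the 26 libraries. Points are libraries, short lines are group means (n = 2), CM is conditioned medium, palbo is palbociclib, erlo is erlotinib, WT is wild type, and the dotted line parts the 2 tables, which are separate files. LGR5 spanned a ratio of 12.9 between groups of the first table, and EPHB2 one of 1.38.

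ASCL2 stayed below 1 FPKM in all libraries but 1. In conditioned medium it stood at 0.35 and 0.11 FPKM in H1047R, 0.11 and 0.08 in E545K, and 0.91 and 1.66 in wild-type cells. The wild-type pair was above all other libraries of the first table. In wild-type cells in DMSO it was at 0.28 and 0.36 FPKM. With the filter on low values removed, ASCL2 was called higher in conditioned medium than in DMSO in wild-type cells (relative log2 change 0.70, SE 0.13, adjusted p 0.000269). In the second table its levels were 0.58 and 0.79 in H1047R against 0.04 and 0.23 FPKM in E545K cells in palbociclib with erlotinib, and H1047R was called higher with the filter removed (0.60, SE 0.10, adjusted p 0.00577).

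The mutant lines were compared with wild type in DMSO, which shows the levels without palbociclib or conditioned medium. No group is labelled as a vector control. In all comparisons between lines, effects of the mutation, of lentiviral transfer and of the clone therefore cannot be told apart. In H1047R cells LGR5, AXIN2, MYB, TCF7 and ZNRF3 were higher, and in E545K cells LGR5 and AXIN2 were higher while MYB and SOX9 were lower. Of the 9 tested genes, 7 were called higher and 0 lower in H1047R, and 6 higher and 2 lower in E545K. Among all genes 67.4% were called in H1047R (49.9% higher, 17.5% lower) and 58.8% in E545K (48.4% higher, 10.4% lower), so most tested genes of the genome were called too. The median log2 change of the 9 genes was 0.78 in H1047R and 0.37 in E545K, beside 0.26 and 0.25 for all genes. After centring each library on its median gene, 5 were higher and 1 lower in H1047R, and 4 higher and 3 lower in E545K. Among the 12607 tested genes, 3317 were then higher and 4650 lower in H1047R, and 2656 higher and 3406 lower in E545K. NKD1 and RNF43 then lost their calls in H1047R, EPHB2 and NKD1 lost theirs in E545K, SOX9 was called lower in H1047R and RNF43 was called lower in E545K.

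LGR5 stood at 41.02 and 42.25 FPKM in H1047R, 14.74 and 12.94 in E545K, and 4.49 and 4.6 in wild-type cells. The 3 lines did not overlap. In bulk RNA, fewer cells of a type and less RNA per cell cannot be told apart. The relative log2 change against wild type was 2.68 in H1047R (SE 0.16, adjusted p 1.3e-09) and 1.16 in E545K (SE 0.16, adjusted p 3.25e-06). H1047R was also higher than E545K (1.50, SE 0.16, adjusted p 3.45e-06).

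AXIN2, the scaffold of the destruction complex that the pathway itself induces, stood at 46.42 and 45.84 FPKM in H1047R, 31.61 and 31.39 in E545K, and 20.64 and 20.33 in wild-type cells. These groups were separate, in the same order as for LGR5. The relative change was 0.87 in H1047R (SE 0.06, adjusted p 1.37e-09), 0.34 in E545K (SE 0.06, adjusted p 1.52e-06) and 0.51 between H1047R and E545K (SE 0.06, adjusted p 8.73e-06). ZNRF3, a ubiquitin ligase that removes Frizzled receptors, was at 2.88 and 3.15 FPKM in H1047R, 2.65 and 2.97 in E545K, and 1.32 and 1.35 in wild-type cells. Both mutant lines were above wild type, and they overlapped each other. Its relative change was 0.52 in H1047R (SE 0.10, adjusted p 5.53e-06). RNF43, the partner ligase of ZNRF3, was at 10.22 and 10.62 FPKM in H1047R, 6.77 and 6.75 in E545K, and 6.68 and 7.62 in wild-type cells. It set H1047R apart from E545K (0.53, SE 0.09, adjusted p 0.000209), while E545K lay within the range of wild type.

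TCF7 stood at 12.22 and 12.64 FPKM in H1047R, 8.21 and 7.86 in E545K, and 5.48 and 5.14 in wild-type cells. Its relative change was 0.83 in H1047R against wild type (SE 0.08, adjusted p 1.66e-08) and 0.55 in H1047R against E545K (SE 0.08, adjusted p 3.88e-05). MYB went in opposite directions in the 2 mutant lines. It was at 54.99 and 60.09 FPKM in H1047R, 18.64 and 16.96 in E545K, and 27.13 and 25.30 in wild-type cells. Against wild type it was higher in H1047R (0.84, SE 0.13, adjusted p 2.16e-06) and lower in E545K (-0.79, SE 0.13, adjusted p 0.00206), and between H1047R and E545K it differed by 1.61 (SE 0.13, adjusted p 2.11e-07). SOX9 was at 42.20 and 45.11 FPKM in H1047R, 30.46 and 30.31 in E545K, and 40.94 and 38.45 in wild-type cells. E545K was below both other lines (relative change -0.63 against wild type, SE 0.06, adjusted p 0.000119). EPHB2 was between 6.41 and 8.27 FPKM in all 6 libraries.

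H1047R against E545K in DMSO gave 6 genes higher and 0 lower, where 41.6% of all genes were called (21.6% higher, 20.0% lower). The median was 0.54, beside 0.03 for all genes. This count was the same under median-centring and quantile normalization. Among the 12607 tested genes, 2295 were higher and 2918 lower under median-centring, and 2773 and 2719 after quantile normalization. The 3 genes with no call were EPHB2, ZNRF3 and NKD1.

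Cell markers were also compared between the lines in DMSO. Of the 9 epithelial markers, 2 were higher and 3 lower in H1047R than in wild type, and 3 higher and 3 lower in E545K, or 1 and 4 in each after median-centring. Of all genes, 67.4% were called in H1047R and 58.8% in E545K. CDH17, an intestinal cadherin, was lower in H1047R (relative change -1.58, SE 0.08, adjusted p 2.94e-09), and LGALS4, an intestinal galectin, was lower in E545K (-2.18, SE 0.15, adjusted p 1.56e-07). CDX2, a transcription factor of the intestine, was higher in both lines, by 1.3 in H1047R (SE 0.12, adjusted p 4.39e-08) and 0.94 in E545K (SE 0.12, adjusted p 1.46e-06). The epithelial list summed to 8348 and 7337 FPKM in H1047R, 8068 and 8620 in E545K, and 7034 and 7340 in wild type. Of the 6 tested markers of other cells, 2 were higher and 2 lower in H1047R, and 2 higher and 1 lower in E545K, or 1 and 2 and 0 and 2 after median-centring. COL3A1, a collagen of fibroblasts, was higher in H1047R (0.72, SE 0.09, adjusted p 1.47e-07). The part of these markers in the differences of LGR5, AXIN2 and the other genes was not tested.

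**Figure D2:**
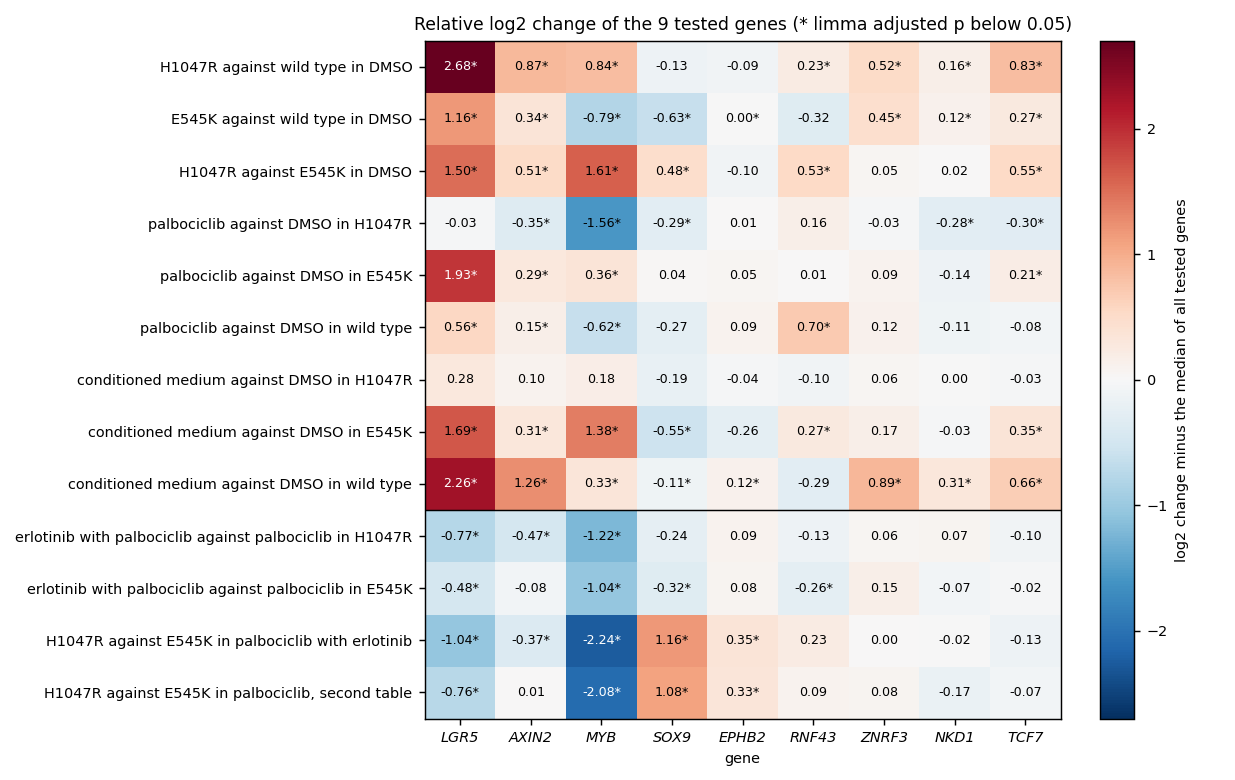
Relative log2 change (log2 change minus the median of all tested genes) of the 9 tested genes, one column each, in 13 comparisons, with the first table above the line and the second below it. A star marks an adjusted p below 0.05 for the change from 0. LGR5 reached 2.68 in H1047R against wild type in DMSO, and MYB reached -2.24 in H1047R against E545K in palbociclib with erlotinib.

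Palbociclib was compared with DMSO within each line, which asks how the genes behave in cells made senescent. LGR5 rose in E545K and in wild-type cells, and AXIN2 rose in E545K cells and fell in H1047R cells. MYB fell in H1047R and in wild-type cells. Of the 9 tested genes, 0 were called higher and 5 lower in H1047R, where 39.3% of all genes were called (19.5% higher, 19.8% lower). In E545K 4 were higher and 0 lower, with 52.2% of all genes called (32.9% higher, 19.3% lower). In wild-type cells 3 were higher and 1 lower, with 34.0% of all genes called (27.2% higher, 6.77% lower). When the model held only the H1047R palbociclib and DMSO groups, 1 gene, MYB, was called there, and 480 of all genes were called in place of 4951. NKD1 also lost its call after quantile normalization and without replicate 1 or 2 of H1047R DMSO or replicate 2 of H1047R palbociclib. Under median-centring the splits were 0 and 5 in H1047R, 3 and 0 in E545K, and 2 and 2 in wild type, where AXIN2 lost its call and SOX9 was called lower. The 12607 tested genes then split 2590 higher and 2335 lower in H1047R, 2880 and 3667 in E545K, and 1442 and 1871 in wild type. The median log2 change of the 9 genes was -0.30 in H1047R, 0.17 in E545K and 0.23 in wild type, beside -0.03, 0.08 and 0.14 for all genes. The H1047R palbociclib libraries differed most from each other, with a residual SD of 0.225 over genes on the log2 scale while the remaining groups there had 0.0942 to 0.168. The 9 epithelial markers summed to 12728 and 16688 FPKM in palbociclib against 8348 and 7337 in DMSO in H1047R, 12604 and 13032 against 8068 and 8620 in E545K, and 8045 and 8392 against 7034 and 7340 in wild type. Of these markers 3 were called higher and 4 lower in H1047R, 4 higher and 3 lower in E545K, and 2 higher and 3 lower in wild type. KRT19, a keratin, was higher in H1047R (1.02, SE 0.13, adjusted p 4.16e-05), and KRT18, another keratin, in E545K (0.62, SE 0.10, adjusted p 3.81e-05). LGALS4 was lower in H1047R (-1.07, SE 0.15, adjusted p 7.87e-05) and in wild type (-1.11, SE 0.15, adjusted p 0.000263). Of the 6 tested markers of other cells 1 was higher and 1 lower in H1047R, 1 higher and 3 lower in E545K, and 0 higher and 0 lower in wild type. The part of these markers in the palbociclib responses was not tested.

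LGR5 in H1047R cells was at 51.74 and 30.92 FPKM in palbociclib and at 41.02 and 42.25 in DMSO. The palbociclib libraries lay on both sides of the DMSO pair, and the relative change was -0.03 (SE 0.16, adjusted p 0.803). This value rests on 1 library: without replicate 2 of H1047R palbociclib it was 0.30 (adjusted p 0.0274), and without replicate 1 it was -0.37 (adjusted p 0.00213). In E545K cells LGR5 was at 58.90 and 58.57 FPKM in palbociclib against 14.74 and 12.94 in DMSO (1.93, SE 0.16, adjusted p 1.44e-07). Wild-type cells had 8.15 and 7.85 FPKM in palbociclib against 4.49 and 4.6 in DMSO (0.56, SE 0.16, adjusted p 0.00349). Palbociclib libraries were above DMSO libraries in both of these lines.

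AXIN2 stood at 36.17 and 34.43 FPKM in palbociclib against 46.42 and 45.84 in DMSO in H1047R cells, a fall (-0.35, SE 0.06, adjusted p 0.000284). With only these 2 groups in the model the adjusted p was 0.133. In E545K cells it stood at 39.38 and 42.88 against 31.61 and 31.39 FPKM, a rise (0.29, SE 0.06, adjusted p 0.000132). In wild-type cells it stood at 25.91 and 24.74 against 20.64 and 20.33 FPKM (0.15, SE 0.06, adjusted p 0.00212), and the adjusted p was 0.167 after median-centring. The treated and untreated pairs were separate in all 3 lines.

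MYB had the largest fall of the 9 genes under palbociclib. In H1047R cells it was at 22.61 and 15.03 FPKM in palbociclib against 54.99 and 60.09 in DMSO (-1.56, SE 0.13, adjusted p 3.82e-07). In wild-type cells it was at 18.27 and 18.74 against 27.13 and 25.30 FPKM (-0.62, SE 0.13, adjusted p 0.00891). That second call was lost without replicate 1 of wild-type DMSO (adjusted p 0.0688) or of wild-type palbociclib (0.0557). E545K cells went the other way, with 25.06 and 23.78 FPKM in palbociclib against 18.64 and 16.96 in DMSO. RNF43 stood out in wild-type cells, with 13.60 and 13.47 FPKM in palbociclib against 6.68 and 7.62 in DMSO (0.70, SE 0.09, adjusted p 1.31e-05). Its palbociclib libraries in the mutant lines were at 12.57 and 10.53 FPKM in H1047R and 6.95 and 7.60 in E545K, and neither line was called.

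The responses themselves were compared between lines by testing the difference of the changes. The LGR5 response to palbociclib was larger in E545K than in wild-type cells by 1.36 (SE 0.22, adjusted p 0.00072). For MYB that difference was 0.96 (SE 0.18, adjusted p 0.00192) and for RNF43 it was -0.70 (SE 0.13, adjusted p 0.000848). In all, 3 of the 9 genes had a higher and 1 a lower response in E545K than in wild type, where 25.7% of all genes were called (10.9% higher, 14.7% lower). H1047R had 0 higher and 5 lower, where 22.6% of all genes were called (5.16% higher, 17.4% lower). Under median-centring or quantile normalization 3 were lower in H1047R. Among the 12607 tested genes, 1313 were higher and 740 lower under median-centring, and 961 and 890 after quantile normalization. The differences of H1047R from wild type were -0.94 for MYB (SE 0.18, adjusted p 0.00123), -0.54 for RNF43 (SE 0.13, adjusted p 0.00284), -0.50 for AXIN2 (SE 0.09, adjusted p 0.000315) and -0.59 for LGR5 (SE 0.22, adjusted p 0.0269). When the model held no other groups the adjusted p was 0.0508 for MYB and 0.0583 for RNF43. The LGR5 call was lost under 9 of 14 alternatives, among them median-centring (adjusted p 0.0647) and leaving out either replicate of wild-type DMSO or of wild-type palbociclib or replicate 2 of H1047R DMSO (0.0592 to 0.084). The TCF7 difference of H1047R from wild type (-0.23, SE 0.11, adjusted p 0.0207) was lost under 7 of 14 alternatives, among them median-centring, quantile normalization and 4 of the 8 libraries left out in turn. For AXIN2 the E545K response differed from that of wild type by 0.12 (SE 0.09, adjusted p 0.541).

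**Figure D3:**
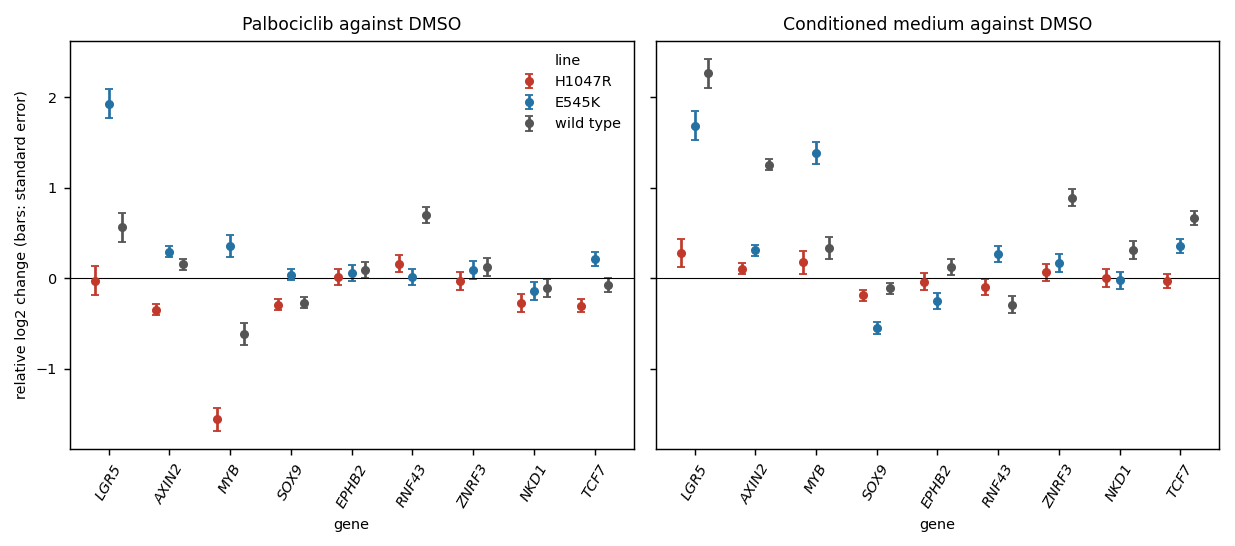
Relative log2 change of each gene in palbociclib (left) and conditioned medium (right) against DMSO, by line, with bars for the standard error. LGR5 changed by -0.03 in H1047R, 1.93 in E545K and 0.56 in wild-type cells in palbociclib, and by 0.28 in H1047R, 1.69 in E545K and 2.26 in wild type in conditioned medium.

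Conditioned medium of senescent cells was compared with DMSO. No group received medium conditioned by cells that were not senescent, and the time in conditioned medium is not given. Effects of the secretions, of used medium, of any drug carried over and of time therefore cannot be told apart. In wild-type cells LGR5, AXIN2, ZNRF3 and TCF7 rose, in E545K cells LGR5, AXIN2 and MYB rose and SOX9 fell, and in H1047R cells no gene was called. Of the 9 tested genes, 0 were called in either direction in H1047R by limma, with 1 (SOX9) at an unadjusted p below 0.05, where 14.6% of all genes were called (8.65% higher, 5.97% lower). After quantile normalization or with no filter on low values, 1 gene, SOX9, was called lower there. In E545K 5 were higher and 1 lower, with 57.3% of all genes called (32.4% higher, 24.9% lower). In wild-type cells 8 were higher and 0 lower, with 70.5% of all genes called (51.9% higher, 18.6% lower). Under median-centring the split was 4 higher and 2 lower in E545K, and 6 higher and 2 lower in wild type. EPHB2 lost its call there and SOX9 and RNF43 were called lower in wild type, while in E545K RNF43 lost its call and EPHB2 was called lower. The 12607 tested genes split 3138 higher and 4178 lower in E545K, and 3791 and 4521 in wild type, under this centring. The median log2 change of the 9 genes was 0.01 in H1047R, 0.31 in E545K and 0.62 in wild type, beside 0.01, 0.05 and 0.29 for all genes.

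LGR5 in H1047R cells was at 53.34 and 48.88 FPKM in conditioned medium against 41.02 and 42.25 in DMSO. In E545K cells it was at 52.01 and 44.79 FPKM in conditioned medium against 14.74 and 12.94 in DMSO, and in wild-type cells at 32.54 and 30.68 against 4.49 and 4.6. The 3 lines were closer together in conditioned medium than in DMSO, with the mutant lines overlapping. The relative change was 0.28 in H1047R (SE 0.16, adjusted p 0.245), 1.69 in E545K (SE 0.16, adjusted p 3.57e-07) and 2.26 in wild type (SE 0.16, adjusted p 3.2e-09). The difference of the H1047R response from that of wild type was -1.99 (SE 0.22, adjusted p 1.97e-06). For E545K it was -0.59 (SE 0.22, adjusted p 0.00702), and after quantile normalization its adjusted p was 0.0984.

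AXIN2 was at 48.96 and 50.80 FPKM in H1047R, 40.84 and 40.44 in E545K, and 61.66 and 61.97 in wild-type cells in conditioned medium. Wild type, the lowest line in DMSO, was the highest here, and the 3 lines were separate. The relative change was 0.10 in H1047R (SE 0.06, adjusted p 0.253), 0.31 in E545K (SE 0.06, adjusted p 0.000153) and 1.26 in wild type (SE 0.06, adjusted p 6.69e-11). Against wild type the response differed by -1.16 in H1047R (SE 0.09, adjusted p 4.77e-08) and by -0.96 in E545K (SE 0.09, adjusted p 1.45e-07).

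ZNRF3 in wild-type cells was at 4.50 and 4.10 FPKM in conditioned medium against 1.32 and 1.35 in DMSO (0.89, SE 0.10, adjusted p 6.32e-08). Its response differed by -0.84 in H1047R (SE 0.14, adjusted p 1.51e-05) and -0.74 in E545K (SE 0.14, adjusted p 5.9e-05). TCF7 in wild-type cells was at 11.38 and 11.07 FPKM in conditioned medium against 5.48 and 5.14 in DMSO (0.66, SE 0.08, adjusted p 4.67e-08), and its response in H1047R differed by -0.70 (SE 0.11, adjusted p 5.87e-06). NKD1, an inhibitor that binds Dishevelled, was at 1.68 and 1.67 FPKM in wild-type conditioned medium against 0.77 and 0.75 in DMSO. Wild-type conditioned medium was thus the group with the most NKD1 in the first table.

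MYB and SOX9 moved in opposite directions in E545K cells. MYB was at 49.40 and 49.92 FPKM in E545K conditioned medium against 18.64 and 16.96 in DMSO (1.38, SE 0.13, adjusted p 2.68e-07). This response was larger than that of wild type by 1.04 (SE 0.18, adjusted p 0.00183). SOX9 was at 21.44 and 20.84 FPKM in E545K conditioned medium against 30.46 and 30.31 in DMSO (-0.55, SE 0.06, adjusted p 7.13e-06). Of the 9 genes, 1 had a higher and 7 a lower response in E545K than in wild type, where 47.1% of all genes were called (10.0% higher, 37.1% lower). H1047R had 0 higher and 7 lower, where 50.9% were called (10.4% higher, 40.5% lower). Under median-centring the split was 0 higher and 4 lower for H1047R and 2 higher and 7 lower for E545K, and after quantile normalization it was 1 and 5 for H1047R and 2 and 3 for E545K. The 12607 tested genes split 3257 higher and 2389 lower for H1047R, and 2354 and 2610 for E545K, under median-centring. After quantile normalization they split 2630 and 2835 for H1047R, and 2450 and 2852 for E545K. For H1047R, SOX9, EPHB2 and NKD1 were the genes that lost their calls under median-centring. In the comparisons of responses with wild type, the same wild-type libraries serve both mutant lines, and the DMSO libraries of a line serve its palbociclib and conditioned medium comparisons.

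Markers of fibroblasts, endothelium, leukocytes and muscle were also compared between conditioned medium and DMSO. Of the 11 listed, 9 are in the first table and 6 were tested. In conditioned medium 1 was higher and 0 lower in H1047R, 0 higher and 4 lower in E545K, and 3 higher and 2 lower in wild type, or 1 and 2 in wild type after median-centring. Of all genes, 14.6% were called in H1047R, 57.3% in E545K and 70.5% in wild type. COL3A1 averaged 11.9 ± 0.4 FPKM in conditioned medium against 7.84 ± 0.06 in DMSO in H1047R, 1.36 ± 0.11 against 3.31 ± 0.05 in E545K, and 18.5 ± 1.6 against 3.46 ± 0.15 in wild type (SD, n = 2 each). The list summed to 52.8 and 59.0 FPKM in conditioned medium against 53.1 and 49.2 in DMSO in H1047R, 47.6 and 46.1 against 62.9 and 64.7 in E545K, and 53.9 and 63.2 against 50.9 and 53.9 in wild type. PDGFRB, PECAM1 and VWF were below 1 FPKM in all of these groups. The epithelial list summed to 8663 and 9016 FPKM in conditioned medium against 8348 and 7337 in DMSO in H1047R, 10228 and 10156 against 8068 and 8620 in E545K, and 8962 and 8559 against 7034 and 7340 in wild type. The part of these markers in the responses was not tested.

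Erlotinib was added to palbociclib in the mutant lines of the second table, with palbociclib alone for comparison. The time in palbociclib alone is not given, so an effect of erlotinib and one of a different time cannot be told apart. LGR5 and MYB were lower with erlotinib in both lines. Of the 9 tested genes, 0 were higher and 3 lower in H1047R (LGR5, AXIN2 and MYB), where 9.36% of all genes were called (3.01% higher, 6.35% lower). In E545K 0 were higher and 4 lower (LGR5, MYB, SOX9 and RNF43), where 16.2% were called (7.10% higher, 9.11% lower). The median log2 change of the 9 genes was -0.16 in H1047R and -0.08 in E545K, beside -0.03 and 0.00 for all genes. Leaving out any 1 of the 4 E545K libraries left 1 call, MYB, and with no filter on low values LGR5 and MYB were called.

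MYB stood at 4.98 and 5.48 FPKM in H1047R cells with erlotinib against 11.81 and 16.13 without (-1.22, SE 0.12, adjusted p 0.000959). In E545K cells it stood at 30.28 and 30.10 with erlotinib against 63.43 and 63.15 FPKM without (-1.04, SE 0.12, adjusted p 0.00139). LGR5 stood at 25.81 and 22.30 FPKM in H1047R cells with erlotinib against 39.32 and 46.17 without (-0.77, SE 0.09, adjusted p 0.00171). No erlotinib library of MYB or LGR5 reached the level of a palbociclib library of its line. In E545K cells LGR5 stood at 52.70 and 54.17 against 75.49 and 74.51 FPKM (-0.48, SE 0.09, adjusted p 0.00904), and its adjusted p was 0.0624 to 0.0765 when any 1 of these 4 libraries was left out. AXIN2 stood at 34.27 and 34.64 FPKM in H1047R cells with erlotinib against 44.62 and 54.33 without (-0.47, SE 0.08, adjusted p 0.00924). Its adjusted p was 0.0707 and 0.0839 without replicate 1 or replicate 2 of the erlotinib libraries, and 0.0962 when the model held no other groups. In E545K cells AXIN2 was at 47.25 and 47.79 with erlotinib against 50.75 and 49.79 FPKM without (-0.08, SE 0.08, adjusted p 0.561).

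The erlotinib responses of the 2 lines were then compared. For the difference of H1047R from E545K 0 of the 9 genes were called by limma, with 2 (LGR5 and AXIN2) at an unadjusted p below 0.05, where 2.17% of all genes were called (0.899% higher, 1.27% lower). It was -0.29 for LGR5 (SE 0.12, adjusted p 0.222) and -0.39 for AXIN2 (SE 0.12, adjusted p 0.112). Without replicate 1 of H1047R palbociclib 3 genes were called, with -0.53 for AXIN2 (adjusted p 0.000925) and -0.40 for LGR5 (0.0226). Without replicate 2 of that group 1 was called, with -0.25 for AXIN2 (0.0262).

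The 2 mutant lines were compared within the second table. MYB and LGR5 were lower and SOX9 higher in H1047R than in E545K, with and without erlotinib. In palbociclib with erlotinib 2 genes were higher and 3 lower, where 53.0% of all genes were called (19.9% higher, 33.1% lower), or 3 and 3 after median-centring. Among the 12463 tested genes, 3285 were higher and 3220 lower after that centring. In palbociclib alone 2 were higher and 2 lower, where 51.6% were called (21.5% higher, 30.1% lower). SOX9 stood at 41.54 and 39.00 FPKM in H1047R against 17.64 and 19.42 in E545K with erlotinib (1.16, SE 0.08, adjusted p 1.32e-05). In palbociclib alone it stood at 46.69 and 51.44 against 24.59 and 22.31 FPKM (1.08, SE 0.08, adjusted p 1.79e-05). The lines were separate in both. For MYB, with the levels given above, the relative change was -2.24 with erlotinib (SE 0.12, adjusted p 2.03e-06) and -2.08 in palbociclib alone (SE 0.12, adjusted p 3.96e-06). LGR5 differed by -1.04 (SE 0.09, adjusted p 2.11e-05) and -0.76 (SE 0.09, adjusted p 0.00014). AXIN2 differed by -0.37 with erlotinib (SE 0.08, adjusted p 0.00202) and by 0.01 in palbociclib alone (SE 0.08, adjusted p 0.787), where its sign turned without replicate 2 of H1047R palbociclib (-0.12, adjusted p 0.0139).

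Cell markers were compared between the 2 lines of the second table too. Of the 9 colorectal markers, 8 were lower and 1 higher in H1047R than in E545K in palbociclib alone, and 6 were lower and 1 higher with erlotinib. Of all genes, 51.6% were called in palbociclib alone and 53.0% with erlotinib. The epithelial list summed to 8689 and 8834 FPKM in H1047R against 8618 and 8935 in E545K with erlotinib. In palbociclib alone it summed to 9505 and 9190 FPKM against 10057 and 10017. CDH17 averaged 0.48 ± 0.14 FPKM in H1047R against 16.0 ± 0.8 in E545K with erlotinib, and 1.12 ± 0.71 against 18.8 ± 1.5 in palbociclib alone (SD, n = 2 each). VIL1, a brush border protein, averaged 0.29 ± 0.03 FPKM in H1047R against 3.49 ± 0.39 in E545K in palbociclib alone. Of the markers of other cells, CD68 was higher in H1047R in palbociclib alone (0.75, SE 0.12, adjusted p 0.0015). COL3A1 was lower there (-0.83, SE 0.24, adjusted p 0.0144). The part of these markers in the differences of MYB, LGR5 and SOX9 was not tested. In the first table CDH17 averaged 1.86 ± 0.13 FPKM in H1047R and 5.96 ± 0.29 in E545K in palbociclib.

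Palbociclib was given to both mutant lines in both tables, as separate files whose times may differ, so their levels were set side by side and not tested. LGR5 averaged 41.3 ± 14.7 FPKM in H1047R against 58.7 ± 0.2 in E545K in the first table, and 42.7 ± 4.8 against 75.0 ± 0.7 in the second. H1047R was below E545K in each. MYB averaged 18.8 ± 5.4 FPKM in H1047R against 24.4 ± 0.9 in E545K in the first table, and 14.0 ± 3.1 against 63.3 ± 0.2 in the second. SOX9 averaged 34.7 ± 1.1 FPKM in H1047R against 33.1 ± 0.4 in E545K in the first table, and 49.1 ± 3.4 against 23.5 ± 1.6 in the second. The cause of these differences between tables was not tested.

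**Figure D4:**
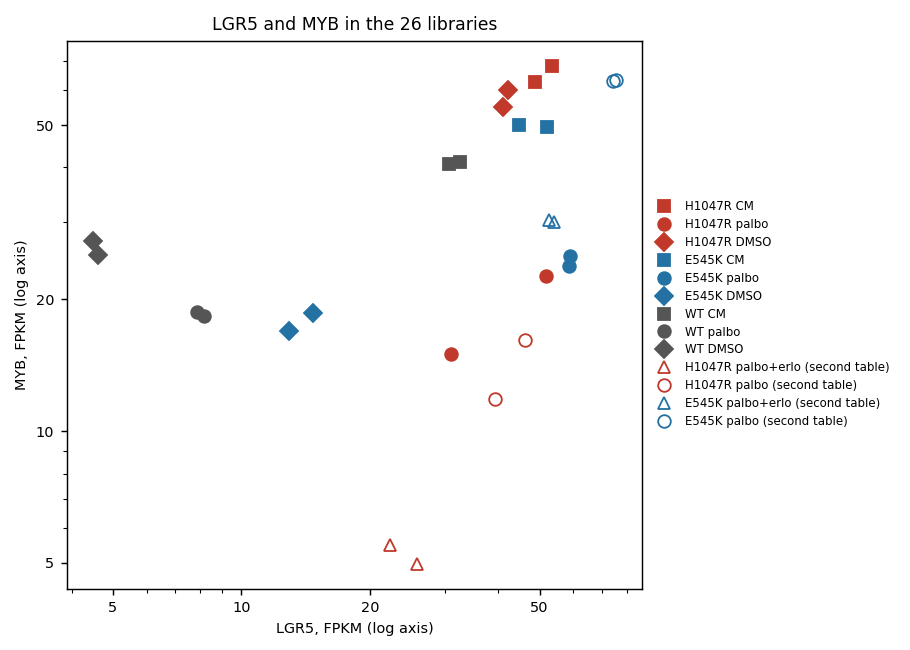
LGR5 against MYB in FPKM on log axes, 1 point per library, with the second table as open symbols. In E545K palbociclib LGR5 was at 58.7 and 75.0 FPKM in the 2 tables while MYB was at 24.4 and 63.3. Wild-type cells in DMSO had the least LGR5 (4.55) and H1047R cells in palbociclib with erlotinib had the least MYB (5.23).

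Across the 9 group means of the first table, on the log2(FPKM + 1) scale, AXIN2 and ZNRF3 correlated at 0.94, LGR5 and TCF7 at 0.93, and AXIN2 and TCF7 at 0.92. RNF43 correlated with the other 8 tested genes at -0.39 to 0.08. These values describe 9 groups that share lines and treatments, and no test was made of them. They were computed without centring, so they include the shift of all genes against wild-type DMSO given above. LGR5, AXIN2, ZNRF3 and TCF7 were all lowest in that group, and the part of the shift was not tested. Over the 4 groups of the second table LGR5 and TCF7 correlated at 0.98 and AXIN2 and ZNRF3 at -0.19. Among 9066 genes with a mean of at least 5 FPKM in the first table, those closest to LGR5 over the 9 groups were C7orf25, TRAK2, TRAF3IP1, ZNF302 and ADAT1, with correlations of 0.994, 0.994, 0.994, 0.992 and 0.992. Over the 4 groups of the second table the same genes gave 0.960, -0.424, 0.927, 0.713 and 0.915. Closest to AXIN2 were APOO, NUDT6, ESD, NKAPD1 and MRPS27, at 0.992, 0.981, 0.978, 0.975 and 0.975 over 9 groups and at 0.852, 0.735, 0.462, -0.334 and 0.679 over 4.

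Other genes of the pathway were described by lists of 26 genes for ligand secretion and receptors, 22 for the destruction complex and nuclear partners, 15 for extracellular and membrane inhibitors, and 22 further targets or stem cell markers. The first table allowed tests of 25, 20, 7 and 17 of them, and the second of 23, 20, 6 and 16. In DMSO the receptor list had 12 genes higher and 7 lower in H1047R, and 11 higher and 6 lower in E545K, against wild type. Its median log2 change was 0.24 in H1047R and 0.13 in E545K, beside 0.26 and 0.25 for all genes. After median-centring these counts were 8 and 10 in H1047R and 5 and 10 in E545K. Without centring, 49.9% of all genes were higher and 17.5% lower in H1047R, and 48.4% and 10.4% in E545K. With it, 3317 of 12607 genes were higher and 4650 lower in H1047R, and 2656 and 3406 in E545K. FZD5, a Frizzled receptor, averaged 7.57 ± 0.00 FPKM in H1047R, 7.58 ± 0.64 in E545K and 17.8 ± 0.8 in wild type (relative changes of -1.40 and -1.39, SE 0.11 each, adjusted p 4.78e-07 and 1.06e-06).

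Of the 7 inhibitors tested in DMSO, 3 were higher and 0 lower in H1047R, and 6 higher and 0 lower in E545K. Their median log2 change was 0.17 in H1047R and 0.49 in E545K, with all genes at 0.26 and 0.25. After median-centring these splits were 2 and 2 in H1047R and 2 and 1 in E545K. For this list and those below, the shares of all genes without centring were 49.9% higher and 17.5% lower in H1047R. In E545K these shares were 48.4% and 10.4%. DKK1, a secreted antagonist of the LRP co-receptors, averaged 35.3 ± 2.3 FPKM in H1047R, 80.2 ± 0.9 in E545K and 19.9 ± 0.4 in wild type. Its relative change was 0.53 in H1047R (SE 0.07, adjusted p 2.12e-07) and 1.71 in E545K (SE 0.07, adjusted p 1.22e-10). Of the further targets, 6 were higher and 3 lower in H1047R and 5 higher and 5 lower in E545K, or 4 and 11 and 2 and 9 after median-centring, with medians of 0.06 and -0.05. MYC, a transcription factor that drives growth and a Wnt target, averaged 61.6 ± 5.5 FPKM in H1047R and 23.1 ± 0.1 in wild type (1.11, SE 0.08, adjusted p 3.62e-09). RGMB of the same list was lower in H1047R than in wild type (-1.08, SE 0.10, adjusted p 3.24e-06). ETS2, also of that list, was lower in E545K (-0.71, SE 0.07, adjusted p 0.000104). In the destruction complex list 6 were higher and 7 lower in H1047R and 8 higher and 4 lower in E545K, or 4 and 12 and 4 and 7 after median-centring, with medians of -0.00 and 0.19. APC itself averaged 4.55 ± 0.55 in H1047R against 1.31 ± 0.14 FPKM in wild type (1.00, SE 0.20, adjusted p 5.16e-05).

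In palbociclib the receptor list had 1 gene higher and 8 lower in H1047R, 5 higher and 9 lower in E545K, and 6 higher and 3 lower in wild type, the last being 2 and 4 after median-centring. Its median log2 change was -0.19 in H1047R, -0.10 in E545K and 0.13 in wild type, beside -0.03, 0.08 and 0.14 for all genes. Without centring, 19.5% of all genes were higher and 19.8% lower in H1047R, 32.9% and 19.3% in E545K, and 27.2% and 6.77% in wild type. With median-centring, 2880 of 12607 genes were higher and 3667 lower in E545K, and 1442 and 1871 in wild type. The destruction complex list had 3 higher and 4 lower in H1047R, 3 and 6 in E545K, and 4 and 1 in wild type, with 1 and 7 in E545K and 2 and 3 in wild type after median-centring, and medians of -0.10, -0.03 and 0.07. The inhibitors had 1 higher and 1 lower in H1047R, 1 and 3 in E545K, and 3 and 0 in wild type, with medians of -0.08, -0.06 and 0.23. The further targets had 3 higher and 3 lower in H1047R, 6 and 6 in E545K, and 2 and 3 in wild type, with 5 and 8 in E545K and 1 and 5 in wild type after median-centring, and medians of -0.17, 0.09 and 0.18. WNT7B, a Wnt ligand, averaged 5.52 ± 0.42 FPKM in palbociclib against 9.73 ± 0.15 in DMSO in H1047R (-0.69, SE 0.10, adjusted p 9.66e-05). In E545K it averaged 5.05 ± 0.78 against 12.5 ± 0.2 FPKM (-1.24, SE 0.10, adjusted p 4.56e-07). The H1047R call of WNT7B had an adjusted p of 0.0501 when the model held no other groups. DKK1 rose in all 3 lines, by 1.33 in H1047R (SE 0.07, adjusted p 1.07e-08), 1.02 in E545K (SE 0.07, adjusted p 2.77e-08) and 0.59 in wild type (SE 0.07, adjusted p 6.52e-06). EPHB3, a receptor like EPHB2, averaged 1.23 ± 0.18 FPKM in palbociclib against 4.33 ± 0.23 in DMSO in E545K (-1.34, SE 0.12, adjusted p 1.19e-06). GUCA2A, a hormone precursor of mature epithelium, rose in all 3 lines, by 2.25 in H1047R (SE 0.15, adjusted p 1.08e-07), 1.16 in E545K (SE 0.15, adjusted p 1.18e-05) and 1.21 in wild type (SE 0.15, adjusted p 2.08e-05). CDH17, of the same differentiation list, was lower in H1047R (-0.815, SE 0.08, adjusted p 1.6e-06) and in wild type (-0.532, SE 0.08, adjusted p 0.00135). CA2 of that list was lower in E545K (-0.59, SE 0.07, adjusted p 2.68e-05). Of 21 differentiation genes, 7 were tested, and 1 was higher and 4 lower in H1047R and 2 higher and 3 lower in each of the other lines, with medians of -0.27 in H1047R, -0.05 in E545K and 0.08 in wild type.

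In conditioned medium the inhibitor list had 0 genes higher and 1 lower in H1047R, 0 higher and 6 lower in E545K, and 5 higher and 1 lower in wild type, the last being 2 and 2 after median-centring. Its median log2 change was -0.11 in H1047R, -0.74 in E545K and 0.37 in wild type, beside 0.01, 0.05 and 0.29 for all genes. Without centring, 8.65% of all genes were higher and 5.97% lower in H1047R, 32.4% and 24.9% in E545K, and 51.9% and 18.6% in wild type. With median-centring, 3138 of 12607 genes were higher and 4178 lower in E545K, and 3791 and 4521 in wild type. DKK1 differed in direction between the lines. It averaged 39.4 ± 0.4 FPKM in conditioned medium against 80.2 ± 0.9 in DMSO in E545K (-1.05, SE 0.07, adjusted p 3.53e-08) and 59.7 ± 2.0 against 19.9 ± 0.4 in wild type (1.25, SE 0.07, adjusted p 2.68e-10). In H1047R it averaged 35.3 ± 1.8 against 35.3 ± 2.3 FPKM. Of the further targets, 3 were higher and 0 lower in H1047R, 9 higher and 7 lower in E545K, and 8 higher and 3 lower in wild type, with 7 and 7 in E545K and 6 and 8 in wild type after median-centring, and medians of 0.01, 0.33 and 0.13. MYC averaged 84.6 ± 3.6 FPKM in conditioned medium against 61.6 ± 5.5 in DMSO in H1047R (0.44, SE 0.08, adjusted p 0.00243), and 85.3 ± 4.2 against 23.1 ± 0.1 in wild type (1.55, SE 0.08, adjusted p 1.71e-10). EPHB3 was lower in conditioned medium in wild type (-1.16, SE 0.12, adjusted p 1.64e-05) and in E545K (-1.66, SE 0.12, adjusted p 6.44e-08). CD44, an adhesion receptor, averaged 7.01 ± 0.21 FPKM in conditioned medium against 20.6 ± 0.7 in DMSO in E545K (-1.48, SE 0.07, adjusted p 1.36e-09). FZD5 fell by 0.75 in H1047R (SE 0.11, adjusted p 0.000834) and fell by 1.86 in wild type (SE 0.11, adjusted p 1.39e-08). In the receptor list 0 were higher and 3 lower in H1047R, 5 and 9 in E545K, and 12 and 8 in wild type, with 2 and 11 in E545K and 8 and 12 in wild type after median-centring, and medians of -0.09, -0.15 and 0.30. The destruction complex list had 0 higher and 1 lower in H1047R, 2 and 5 in E545K, and 6 and 6 in wild type, with 1 and 8 in E545K and 5 and 13 in wild type after median-centring, and medians of -0.04, -0.08 and -0.13.

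With erlotinib 9.36% of all genes were called in H1047R and 16.2% in E545K. Calls in the destruction complex list and among the further targets included TLE3 and ETS2 (lower) and TNKS and CD44 (higher) in E545K. In H1047R they included PTK7 (higher) and PROM1 (lower). Each of these calls was lost under some alternatives. In the receptor list 1 was higher and 0 lower in H1047R, and 0 higher and 1 lower in E545K. Of the inhibitors 0 were higher and 1 lower in H1047R, and 2 higher and 0 lower in E545K. The medians were 0.00 in H1047R and 0.03 in E545K for receptors, and 0.13 and 0.17 for inhibitors. DKK1 fell by 0.45 in H1047R (SE 0.06, adjusted p 0.00285) and rose by 0.40 in E545K (SE 0.06, adjusted p 0.00412), and this difference was called (-0.85, SE 0.09, adjusted p 0.00298). The H1047R call had an adjusted p of 0.0539 when the model held no other groups, and that of E545K one of 0.0516 without replicate 2 of E545K with erlotinib. Between the lines CD44 was higher in H1047R than in E545K, with 38.8 ± 0.5 against 14.0 ± 0.3 FPKM with erlotinib (1.49, SE 0.08, adjusted p 3.79e-06) and 31.9 ± 4.0 against 9.85 ± 0.15 in palbociclib alone (1.64, SE 0.08, adjusted p 2.36e-06).

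**Figure D5:**
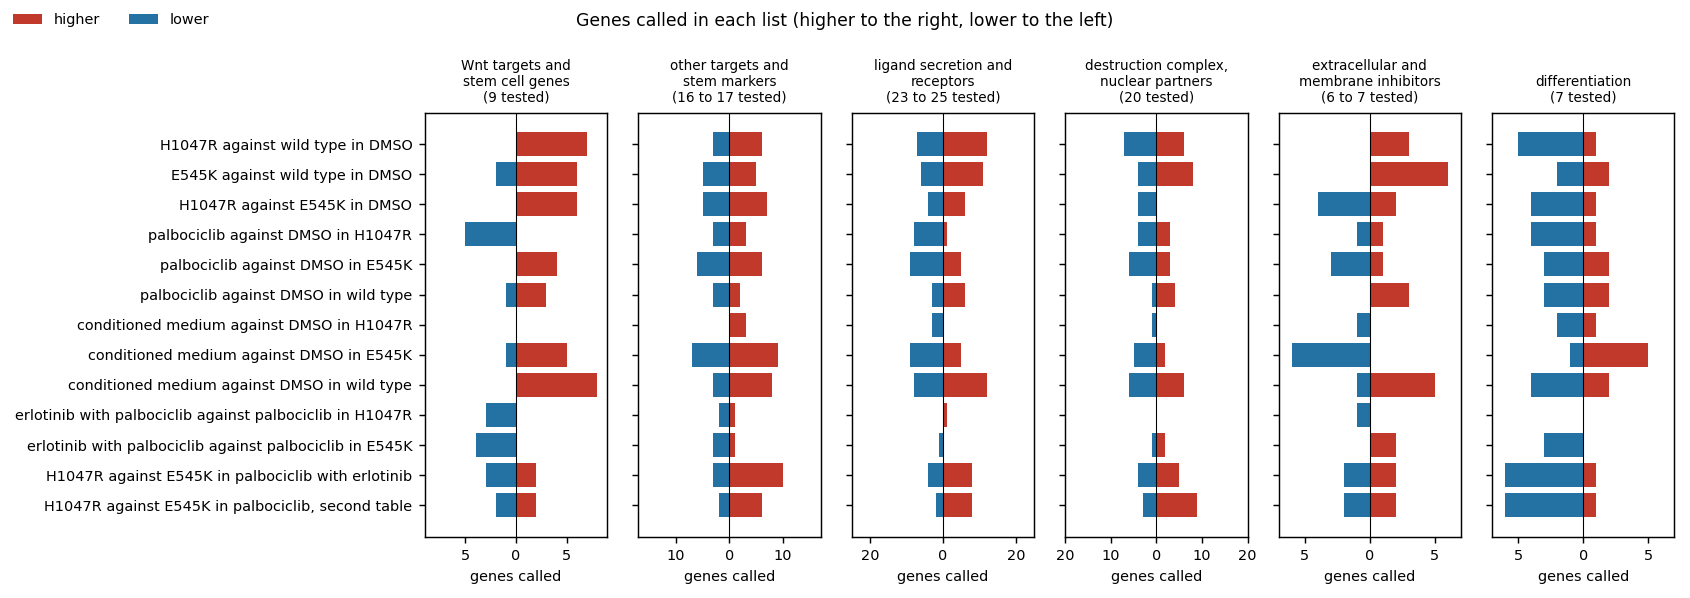
Number of genes called higher (right, red) and lower (left, blue) in the list of Wnt targets and stem cell genes and in 5 further lists, for 13 comparisons. The list of Wnt targets and stem cell genes had 0 higher and 5 lower in H1047R in palbociclib and 8 higher and 0 lower in wild-type cells in conditioned medium. Of all genes, 19.5% were higher and 19.8% lower in the first of these comparisons, and 51.9% and 18.6% in the second.

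The genes lie on 8 chromosomes of GRCh38.p14, and some overlap neighbours. LGR5 (chromosome 12, 71439129 to 71586310) shares 3.96% of its exon bases with AC078860.1 on the opposite strand, and its span but no exon bases with TSPAN8 on that strand. AXIN2 (chromosome 17, 65528563 to 65561648) shares 25.2% of its exon bases with AC004805.1 on the same strand. RNF43 (chromosome 17, 58352500 to 58417534) shares 57.6% with AC004687.2 on the same strand and 20.3% with TSPOAP1-AS1 on the opposite one. TCF7 (chromosome 5, 134108218 to 134148210) shares 2.09% with SKP1 on the opposite strand. SKP1 averaged 73.0 to 93.7 FPKM over the groups of the first table, and TCF7 5.31 to 12.43. MYB (chromosome 6, 135181308 to 135219172) shares 1.88% with MYB-AS1. Whether counting used the strand is not given in the sources used here, so levels of these genes can include reads of genes on the opposite strand. Overlaps on the same strand, that of RNF43 most of all, would not be separated by a strand setting.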

How the data were processed

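The deposited values are FPKM per gene and library, 1 table of 18 libraries and 1 of 8, per the file headers. The submitters' processing notes name HISAT2 2.1.0, Bowtie2 2.3.4.3, RSEM 1.3.1, DESeq2 1.4.5 and GRCh38 (hg38), without stating what each was used for. The authors' filters, strand setting and read counts are not given in the sources used here, so no depth, counting interval or count-based test could be had.

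From these values log2(FPKM + 1) was computed, with a pseudocount of 1, and a gene entered the tests of a table when 2 or more of its libraries reached 1 FPKM. Each table was fitted apart with limma 3.58.1 (R 4.3.3, empirical Bayes with intensity trend), 1 coefficient per group, over all its groups. Two-sided p-values were adjusted by Benjamini-Hochberg over all tested genes in each of 18 comparisons. Figures were drawn with Python 3.11.15 and matplotlib 3.10.9. Alternatives were a pseudocount of 0.1, no filter, quantile normalization, median-centring, a replicate block, only the groups compared, and each library left out.

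The members and the gene lists were chosen with earlier results of these data known. A gene was named with its statistics where it was called with a relative log2 change of at least 0.5 in size, LGR5 and AXIN2 in every comparison, and of each further list up to 2 called genes with the largest relative change could be named. SOX9, EPHB2, COL3A1, VIL1 and other genes named outside this rule were chosen after their values were seen.

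The replicate numbers were not taken to pair libraries. Deviations of libraries with the same number correlated at -0.56 to 0.55 over 36 pairs of groups in the first table and at -0.10 to 0.03 over 6 in the second, and the labels state no shared culture or day. On simulated data for palbociclib in E545K, with 12607 genes, limma recovered 62% of 50 genes changed by 0.5 on the log2 scale, and 100% of those changed by 1. For erlotinib in E545K, with 12463 genes, it recovered 60% and 94%. The simulations left 12407 and 12263 genes unchanged and gave each gene the same spread in all groups. In the data 52.2% and 16.2% of genes were called in these comparisons, so the rates need not hold there.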

Additional observations from a re-analysis of the deposited data

Results flagged for a closer look

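Responses to treatment differed between lines by the test of the difference itself, on the relative log2 scale, as follows. In palbociclib, the E545K response differed from that of wild type by 1.356 for LGR5, 0.959 for MYB, 0.297 for SOX9 and -0.702 for RNF43. The SOX9 difference was no longer called when any 1 of the 8 libraries it uses was left out. The H1047R response differed from that of wild type by -0.588 for LGR5, -0.504 for AXIN2, -0.942 for MYB, -0.539 for RNF43 and -0.226 for TCF7. The LGR5 difference was lost under 9 of 14 alternatives and the TCF7 difference under 7 of 14, both among them under median-centring, and those of MYB and RNF43 only when the model held no other groups.

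In conditioned medium, the E545K response differed from that of wild type by -0.593 for LGR5, -0.961 for AXIN2, 1.036 for MYB, -0.455 for SOX9, -0.391 for EPHB2, -0.737 for ZNRF3, -0.353 for NKD1 and -0.326 for TCF7. Of these the calls of LGR5, EPHB2, NKD1 and TCF7 were lost after quantile normalization. The H1047R response differed by -1.994 for LGR5, -1.164 for AXIN2, -0.088 for SOX9, -0.167 for EPHB2, -0.836 for ZNRF3, -0.322 for NKD1 and -0.703 for TCF7. The relative differences of SOX9 (SE 0.087) and EPHB2 (SE 0.127) were close to their standard errors in size. The SOX9 call was lost under median-centring, and those of EPHB2 and NKD1 under both median-centring and quantile normalization. Both sets of differences share the wild-type libraries.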

How the results depend on the processing

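Of 65 combinations of a named gene of the 10 and a comparison, 52 kept their direction and call under each alternative run, and of 722 alternative values 3 were reversed. LGR5 in palbociclib against DMSO in H1047R ran from -0.37 to 0.302 when a library was left out. AXIN2 in H1047R against E545K in palbociclib in the second table was -0.022 with no filter and ran from -0.124 to 0.155 when a library was left out. The cause was not tested.

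The count of the 9 genes called also moved by over 1.5 times, as follows. For palbociclib in H1047R, reported as 5, it was 1 with only the groups compared, and 4 to 6 with a library left out. For conditioned medium in H1047R, reported as 0, it was 1 with no filter and 1 after quantile normalization. For the palbociclib response of H1047R minus that of wild type, reported as 5, it was 3 under median-centring, 1 with only the groups compared, 3 after quantile normalization, 4 with no filter, and 3 to 6 with a library left out. For the conditioned medium response minus that of wild type it was 5 after quantile normalization and 8 to 9 under the other alternatives for E545K, reported as 8, and 4 under median-centring and 6 to 8 under the others for H1047R, reported as 7. For erlotinib in E545K, reported as 4, it was 2 with no filter, 3 under median-centring and the replicate block, where RNF43 lost its call, and 1 with any library left out. For the erlotinib response of H1047R minus that of E545K, reported as 0, it was 0 to 3 with a library left out.

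Over all genes, the number called for palbociclib was 4287 in wild type and 2616 to 2725 with a library left out, and 4951 in H1047R, 480 with only the groups compared and 2732 to 6780 with a library left out. For conditioned medium in H1047R it was 1844, 605 with only the groups compared and 686 to 1518 with a library left out. For the palbociclib response of H1047R minus that of wild type it was 2845, 288 with only the groups compared, 1851 after quantile normalization and 1268 to 5562 with a library left out. For erlotinib in E545K it was 2020, 3583 with only the groups compared and 512 to 694 with a library left out, and in H1047R 1167, 686 with no filter, 115 with only the groups compared and 201 to 3795 with a library left out. For the erlotinib response of H1047R minus that of E545K it was 270, 112 with no filter, 141 with the replicate block and 34 to 2079 with a library left out. Under the replicate block the count of the 9 genes called stayed within 1 of the count without it in each comparison, for example 5 for palbociclib in wild type against 4 without the block. Leaving a library out leaves 1 sample in a group, which is assumed to vary like the other groups. Groups of 2 and an unknown depth limit all values.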
